A study of Mus musculus with 3 samples.

Results

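The visual cycle genes examined here are Rpe65, Lrat, Rdh5, Rlbp1, Rgr, Rrh and Ttr, 7 of the 31053 genes counted in single cells of the mouse iridocorneal angle and limbus. They were chosen by name, as genes through which pigment epithelium handles vitamin A, with earlier results of these data known. The study compared control eyes with eyes that lack Angpt1, the gene of the vessel growth factor angiopoietin 1, in cells of the neural crest (Angpt1ΔNC), and prepared droplet libraries on the 10x Genomics platform from mice aged 6 weeks. The control group is Angpt1 flox/flox, with 2 libraries, and the Angpt1ΔNC group is Angpt1 flox/flox;Wnt1Cre+, with 1 library. All mice were of mixed strain, crossed for 2 generations to ICR so that both genotypes were albino, and each library pooled the eyes of 2 to 3 animals of both sexes. Wnt1-Cre recombines in the neural crest, whereas pigment epithelium and ciliary epithelium arise from the neuroepithelium of the eye cup. The retina and most of the iris were cut away during dissection, so the amount of pigment epithelium that stayed with the angle can differ between libraries.

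The visual cycle restores the light-sensitive chromophore of photoreceptors. In the retinal pigment epithelium (RPE), LRAT esterifies all-trans retinol, RPE65 isomerizes the ester to 11-cis retinol, RDH5 oxidizes this to 11-cis retinal, and RLBP1 (CRALBP) binds and protects the 11-cis retinoids. RGR and RRH (peropsin) are opsins of the pigment epithelium that bind retinal, and RLBP1 and RGR are also made by the Müller glia of the retina. TTR, transthyretin, carries thyroxine and the complex of retinol with its binding protein, and is abundant in the liver, the choroid plexus and the RPE.

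Positions are those of mouse build GRCm38 in the GENCODE M21 annotation. Rpe65 is at chr3:159599175-159625321 on the plus strand, and Lrat (chr3:82892579-82903973) and Rrh (chr3:129804408-129822587) are on the minus strand of the same chromosome. Rlbp1 (chr7:79374870-79387048), Rdh5 (chr10:128913593-128922888) and Rgr (chr14:37034909-37048964) are also on the minus strand. Rdh5 shares 5007 bases with Bloc1s1 on the same strand, so reads from that stretch cannot be assigned to either gene by position alone. Lrat lies whole within Rbm46os, an antisense transcript, and whether the counting used the strand was not given in the sources used here. Levels of different genes are not ranked against each other, and ratios of UMIs between genes are compared only across cells and libraries.

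The promoters of Rpe65, Rlbp1 and Rgr are shown because these are the members whose values later separate the kinds of cell and the genotypes most plainly. Each is 300 bases of RefSeq sequence (GRCm38.p6), read 5′ to 3′ along the gene. It runs from 250 bases before the start used for the window to 50 from it on. That start differs from the gene start in GENCODE M21, given above, in each of these genes. The Rgr window lies wholly outside the Rgr span given above. The Rpe65 window is chr3:159598931-159599230 (plus strand), that of Rlbp1 chr7:79386978-79387277 (minus strand) and that of Rgr chr14:37048965-37049264 (minus strand). Capitals mark matches on either strand to TAATCC (reverse GGATTA, the core bound by OTX2 and its relatives), the E-box CATGTG (reverse CACATG, a form bound by MITF) and TATAAA (reverse TTTATA).
Rpe65: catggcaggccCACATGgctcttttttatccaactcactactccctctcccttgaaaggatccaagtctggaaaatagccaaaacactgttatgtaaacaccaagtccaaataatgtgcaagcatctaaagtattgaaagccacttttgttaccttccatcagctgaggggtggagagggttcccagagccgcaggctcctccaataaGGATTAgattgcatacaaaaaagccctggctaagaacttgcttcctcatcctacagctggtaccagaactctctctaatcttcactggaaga
Rlbp1: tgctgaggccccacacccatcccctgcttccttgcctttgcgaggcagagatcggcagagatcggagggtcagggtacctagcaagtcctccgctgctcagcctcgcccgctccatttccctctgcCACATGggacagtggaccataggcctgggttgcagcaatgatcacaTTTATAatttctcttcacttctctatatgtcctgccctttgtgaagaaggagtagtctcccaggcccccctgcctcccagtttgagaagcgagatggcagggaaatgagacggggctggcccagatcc
Rgr: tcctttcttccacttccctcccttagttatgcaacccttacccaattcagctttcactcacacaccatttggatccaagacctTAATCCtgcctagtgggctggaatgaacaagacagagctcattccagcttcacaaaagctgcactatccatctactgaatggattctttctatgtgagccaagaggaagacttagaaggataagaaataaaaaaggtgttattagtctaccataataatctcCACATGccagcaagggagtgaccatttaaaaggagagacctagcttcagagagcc
The TAATCC core begins at base -42 in Rpe65 and at base -167 in Rgr, counted from the start used for the window as 0. Of all 32851 promoters of this length, 7.06% hold one. CATGTG begins at base -239 in Rpe65, -124 in Rlbp1 and -5 in Rgr, against 14.2% of all promoters. TATAAA begins at base -78 in Rlbp1 and, among the other members, at base -231 in Rrh, against 13.6% of all promoters. The other E-box searched, CACGTG (7.15% of all promoters), was in none of the 6 windows read, those of all members but Ttr, and no search pattern matched in Rdh5 or Lrat. The Rdh5 window, chr10:128919248-128919547, lies inside the Rdh5 span given above, so the bases before that span were not searched. These matches describe letters and not bound sites.

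The authors kept 9076 cells of control 1, 10160 of control 2 and 6772 of Angpt1ΔNC, with medians of 6329.5, 6393.5 and 7444 unique molecular identifiers (UMIs) per cell, and gave each cell 1 of 35 cluster labels. Pairs of libraries shared 13 to 25 cell barcodes. Stromal cells (TM1 to TM11) held 2457 and 2615 Angpt1 UMIs in the controls and 14 in Angpt1ΔNC, whose Angpt1 was targeted. The study called cluster 1 RPE, cluster 7 ciliary epithelium, clusters 8 and 9 melanocytes, and clusters 4 and 5 limbal and corneal epithelium. Of 8 RPE markers, 7 were present in over 10% of cluster 1 cells in both controls, and the exception was Best1 with 1 UMI in control 1 and 0 in control 2. Of 9 markers of ciliary epithelium, 4 (Zic1, Zic2, Zic4 and Wfdc1) had no UMI in cluster 1 of the controls, while 3 of the 9 were present in over 10% of its cells. A level below is the mean over cells of a gene's UMIs per 10,000 UMIs of the cell, and a share is the percent of cells with at least 1 UMI, with exact Clopper-Pearson 95% intervals that cover counting error only. Levels by cluster are a description, since the clusters were built from these cells' genes.

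Each of the 7 genes had its highest level in cluster 1 in every library. Cluster 1 held 133 cells of control 1, 81 of control 2 and 17 of Angpt1ΔNC, with median depths of 17538, 10444 and 18150 UMIs. Between 98.4% and 99.2% of all Rpe65 and Rgr UMIs of a library lay in these cells. Of the enzymes, Rpe65 was at 45.6, 43.4 and 6.97 UMIs per 10,000 in control 1, control 2 and Angpt1ΔNC. Rdh5 was at 66.5, 61.0 and 25.8, and Lrat at 6.39, 4.41 and 4.04. The controls lay close together for Rpe65 and Rdh5, and Angpt1ΔNC was the lowest library for all 3 enzymes, by little for Lrat. The retinoid-binding Rlbp1 was at 19.8, 18.3 and 6.63. Of the opsins, Rgr was at 78.1, 52.6 and 10.5, and Rrh at 7.82, 6.98 and 3.99. Ttr was at 938, 836 and 375. Angpt1ΔNC was below both controls for every member, and the range of the controls was widest, relative to their mean, for Rgr and Lrat.

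**Figure D1:**
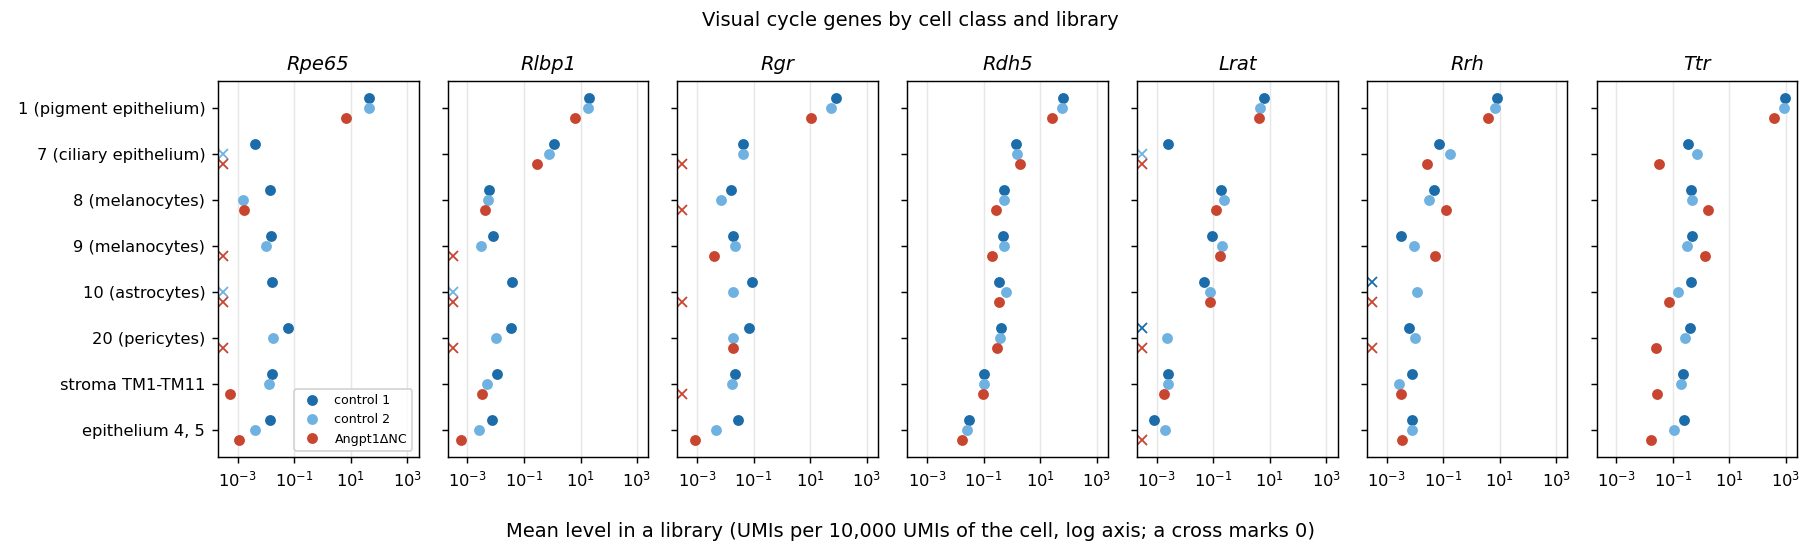
Level of each member in UMIs per 10,000, on a log axis, by cell class, with 1 point per library and a cross for a level of 0. Every member is highest in cluster 1, from 4.04 for Lrat in Angpt1ΔNC to 938 for Ttr in control 1, and Ttr in cluster 8 is higher in Angpt1ΔNC (1.81) than in the controls (0.438 and 0.476).

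UMIs of these genes outside cluster 1 were set beside the free RNA of each library. The surface epithelium of clusters 4 and 5 should lack the members, and served as background. Where free RNA is the only source, the ratio of a member's UMIs to those of Ttr should be the same in every kind of cell of a library, so the percent of the member in the sum of both was compared with that of the background, with exact binomial intervals. Rpe65 made up 4.75% (95% interval 3.00 to 7.11) of the sum with Ttr in the background of control 1, 2.96% (1.09 to 6.32) in control 2 and 3.57% (0.0904 to 18.3) in Angpt1ΔNC. In cluster 1 itself it made up 4.90%, 5.25% and 2.36%, within those intervals. Among the labels other than 4 and 5 with a UMI of either gene, 32 in each control and 27 in Angpt1ΔNC, the interval of Rpe65 was above that of the background in 0. Rgr exceeded it in 1 label of 1 library, cluster 22 of control 2, with 3 UMIs. No label outside cluster 1 was thus shown to hold more Rpe65 than free RNA of this composition gives, at this depth, and in Angpt1ΔNC, where the background had 1 UMI of Rpe65 and 1 of Rgr, the intervals are wide.

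Rpe65 positive cells were rare outside cluster 1. In the background they were 13 of 989 cells of control 1 (1.31%, interval 0.702 to 2.24), 6 of 1012 in control 2 (0.593%) and 1 of 911 in Angpt1ΔNC (0.110%), with 17717, 15168.5 and 15135 UMIs in the median cell. In cluster 8, at 9907, 9262 and 11293 UMIs, they were 1.19%, 0.130% and 0.226%, at or under the background within the intervals. Cluster 7 held 1 Rpe65 positive cell among 316 in control 1, 0 among 107 in control 2 (which allows a share of cells with a UMI of up to 2.80%) and 0 among 139 in Angpt1ΔNC (up to 2.16%). These limits cover cells with a UMI, not cells that express the gene. A UMI of Ttr was far more widespread, in 23.1%, 16.5% and 2.96% of the background cells, the order of the libraries being that of the UMIs of Ttr in cluster 1 (235307, 99836 and 16068).

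**Figure D2:**
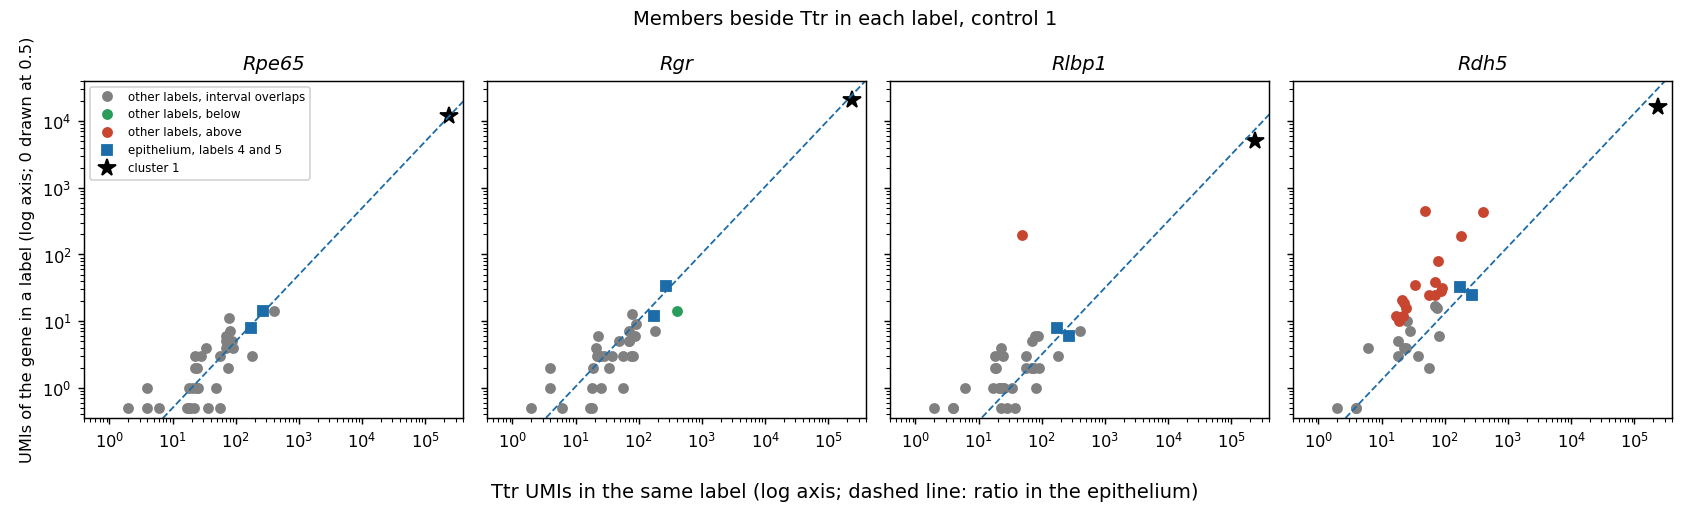
UMIs of Rpe65, Rgr, Rlbp1 and Rdh5 against UMIs of Ttr in each cluster label of control 1 (both axes log, a count of 0 drawn at 0.5), where the dashed line is the ratio in the epithelium of clusters 4 and 5 and red points have an interval above it. Rpe65 follows the line from the epithelium up to cluster 1, whereas Rlbp1 in cluster 7 (197 UMIs) and Rdh5 in 16 labels stand above it.

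The background itself was unlike cluster 1 for Rdh5 and Rrh. Rdh5 made up 11.6%, 18.9% and 50.9% of the sum with Ttr in the surface epithelium and 6.501%, 6.63% and 6.22% in cluster 1. Rrh made up 3.92%, 8.37% and 22.9% against 0.843%, 0.857% and 0.998%. The intervals were apart in each library, and the source of these UMIs in the epithelium was not tested.

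For 4 members some labels held more than the background gives. Rlbp1 did so in cluster 7 alone, in each of the 3 libraries. Rdh5 did so in 4 labels of all 3 libraries, clusters 7, 17 and 20 and TM_2, and in 10 labels of both controls. Lrat did so in clusters 8, 9 and 10 of both controls, in cluster 10 on 3 UMIs in control 1 and 6 in control 2. In Angpt1ΔNC the background had 0 Lrat UMIs and an interval of up to 12.8%, and in clusters 8 and 9 Ttr was itself far above its background (934 UMIs against 8.22 at the epithelial level, and 292 against 3.40), so the ratio to Ttr could not show an excess of Lrat there. The high Ttr limits the ratio of every other member in these 2 clusters of Angpt1ΔNC, Rpe65 among them. Ttr was above its epithelial level in the controls too, by 2.02- and 4.40-fold in cluster 8 and 2.11- and 2.78-fold in cluster 9. The ratio is limited there as well, to a lesser degree. Counted directly, these cells of Angpt1ΔNC held 64 and 31 Lrat UMIs, where the level of stromal cells would give 1.01 and 0.418. Rrh did so in clusters 3 and 8 of control 1 and cluster 7 of control 2. Counted directly, cluster 8 held 41, 28 and 71 Rrh UMIs, against 7.996, 7.56 and 2.43 at the epithelial level. In stromal cells the level of Rdh5 was low but its share of the sum with Ttr, 33.1%, 37.4% and 76.6%, was above that of the background in each library.

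Within cluster 1 the members were detected together. All 6 members other than Ttr were detected at once in 99 of the 133 control 1 cells, 51 of 81 of control 2 and 5 of 17 of Angpt1ΔNC. Across the cells of a control, Rpe65 and Rgr were correlated with Spearman's rho of 0.76 in control 1 and 0.71 in control 2, a description over 133 and 81 cells that share library and depth. Rpe65 and Rlbp1 gave 0.66 and 0.31, and Rgr and Lrat 0.51 and 0.63. The coefficient of variation over the cells of control 1 was 0.71 for Rpe65, 0.68 for Rgr and 0.88 for Lrat, against 0.34 for Rdh5 and 0.35 for Ttr.

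A group of cluster 1 cells had no UMI of Rpe65. There were 18 such cells of 133 in control 1, 20 of 81 in control 2 and 11 of 17 in Angpt1ΔNC. At the median level of the Rpe65 positive cells of their own library, these cells would have held medians of 38.1, 41.9 and 15.1 Rpe65 UMIs, with 4.17 as the lowest expectation and 0 cells under 3. The lowest levels among Rpe65 positive cells were 3.44, 0.881 and 0.312 per 10,000, and those of Angpt1ΔNC numbered 6. An expectation at the median therefore cannot tell a lack of Rpe65 from a low level of it. The absence of Rgr ran with that of Rpe65, in 11, 11 and 9 of the cells. Their mean Rgr level was 5.19, 2.54 and 2.24, against 89.5, 69.0 and 25.6 in the cells with Rpe65. The other members were lower but present, as Rrh was found in 14, 16 and 8 of these cells and Lrat in 9, 10 and 7. Lrat was at 1.86, 1.51 and 1.94 in the cells without Rpe65 and at 7.10, 5.37 and 7.87 in those with it.

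Genes of melanin synthesis went the other way between these cells. Pmel, the fibril protein of melanosomes, was at 21.5, 14.5 and 16.1 in the cells without Rpe65 and at 7.0, 4.05 and 5.86 in those with it. Dct, which makes a melanin precursor, was at 38.5, 27.8 and 45.9 against 16.3, 19.2 and 31.9. The same order was seen in each library, but the cells were divided by Rpe65 itself and no test was made. The median depth of the cells without Rpe65 was 7437, 7249.5 and 11764 UMIs and that of the cells with it 19238, 14947 and 34417, and the part of depth in these levels was not tested.

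**Figure D3:**
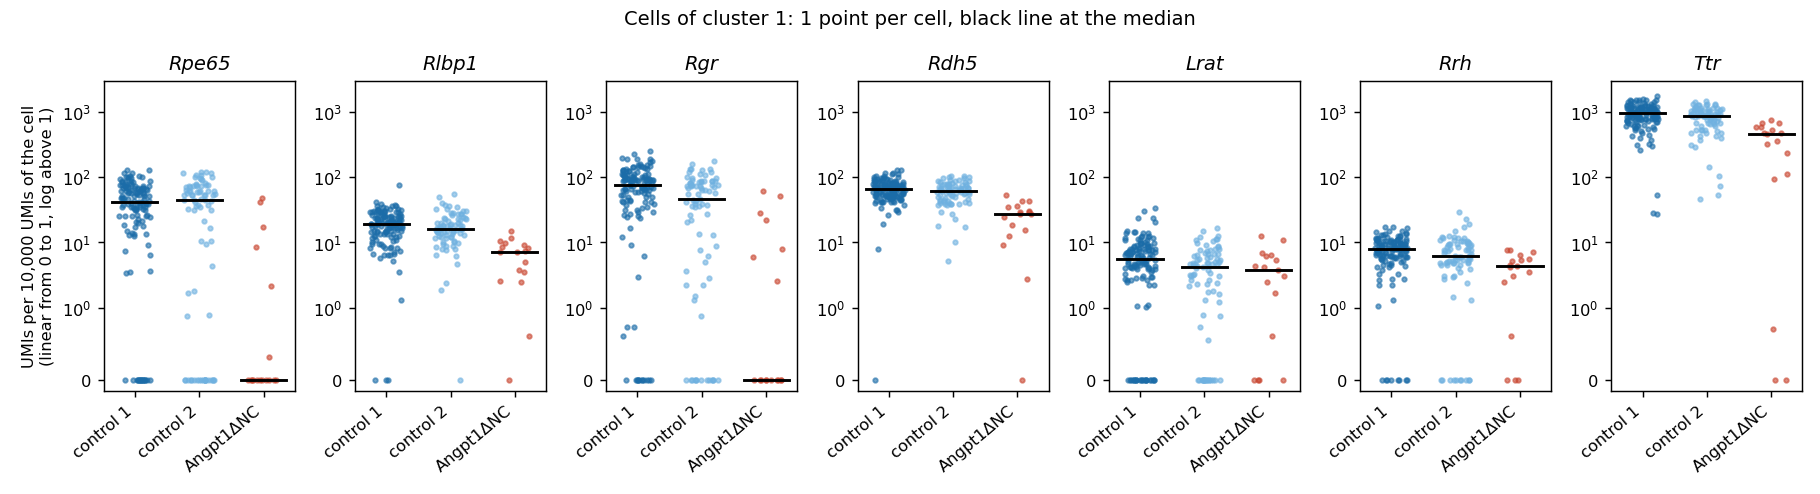
Each point is 1 cell of cluster 1, with the gene's UMIs per 10,000 on a scale that is linear up to 1 and log above it, by library, and a black line at the median. The median of Rpe65 is 41.8 and 44.3 in the controls and 0 in Angpt1ΔNC, where 11 of 17 cells have no UMI of it. In the controls its coefficient of variation is 0.71 and 0.86, against 0.34 and 0.36 for Rdh5 and 0.35 and 0.40 for Ttr. In Angpt1ΔNC 1 cell has no UMI of Rdh5 and 2 have none of Ttr.

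The comparison between genotypes asked whether any member differed within a class of cells once Angpt1 was lost from the neural crest. UMIs were summed over the cells of a class in each library and tested with edgeR's quasi-likelihood test, with adjustment over all genes tested in the class. With 2 libraries against 1 there is 1 residual degree of freedom, and the single Angpt1ΔNC library is taken to vary as the controls do. The p-values rest on the spread between the 2 pooled control libraries, moderated over the genes tested in each class apart. Their sizes are therefore not compared between classes. They measure no spread between Angpt1ΔNC pools or between animals.

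All 7 members fell in cluster 1 of Angpt1ΔNC, where 4.71% of the 8139 genes tested were called lower, and in each the Angpt1ΔNC level was below both controls, as it was, on normalised counts, for 42.9% of the genes tested. Rpe65 changed by a log2 fold of -2.54 (SE 0.31, adjusted p = 9.05e-09) and Rgr by -2.63 (SE 0.32, adjusted p = 9.67e-09). Rlbp1 changed by -1.70 (SE 0.29, adjusted p = 1.23e-05), and Rdh5 by -1.48 (SE 0.30, adjusted p = 0.000258). Ttr changed by -1.40 (SE 0.35, adjusted p = 0.00425) and Rrh by -1.16 (SE 0.27, adjusted p = 0.00185). The smallest change was that of Lrat, -0.79 (SE 0.27, adjusted p = 0.0453), which did not pass with the size factors of DESeq2 (adjusted p = 0.0510) or with its Wald test (adjusted p = 0.227). The median change of the members was -1.48, against -0.01 over all genes tested.

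The difference rests on 17 cells of 1 library, and the proportions of cells within the cluster moved with it. Of the Angpt1ΔNC cells, 3 had under 5 UMIs of Slc16a8 per 10,000, the lactate transporter that marks RPE, as had 1 cell of control 1 and 3 of control 2. Over the remaining 132, 78 and 14 cells, a choice made after seeing the data, 6 of the 7 members fell, against 4.17% of the genes tested. Rpe65 then changed by -2.32 and Rgr by -2.41, while Lrat, at -0.57 (adjusted p = 0.159), did not pass. All of these 14 Angpt1ΔNC cells had UMIs of Rlbp1, Rdh5, Rrh and Ttr and 13 had Lrat, but 6 had Rpe65 and 7 had Rgr. Among Rpe65 positive cells of the whole cluster the Rpe65 level was 52.7 and 57.7 in the controls and 19.7 in the 6 cells of Angpt1ΔNC. Summed RPE markers were at 47.7, 43.6 and 31.5 UMIs per 10,000, those of pigmented cells and melanocytes at 40.2, 37.6 and 66.3, and those of ciliary epithelium at 2.13, 1.597 and 3.94. The part of each in the difference was not tested. Which part of the eye each cell came from is not recorded, and a genotype effect cannot be told apart from a different yield of the dissection with 1 library.

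**Figure D4:**
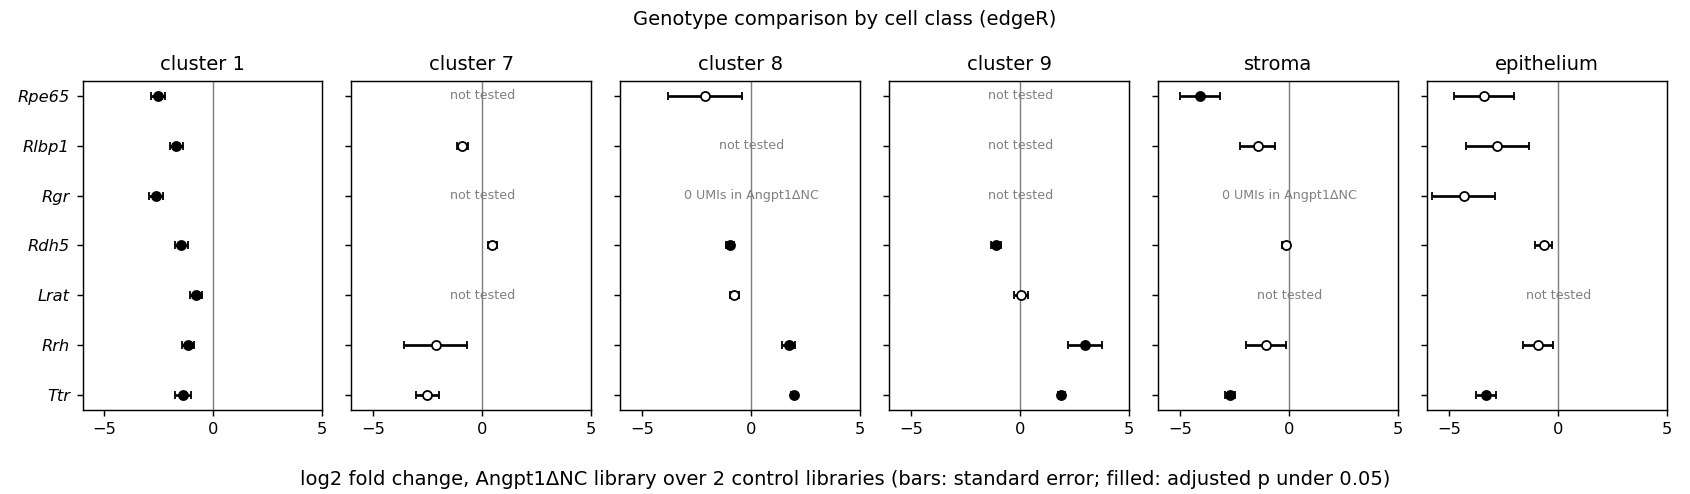
Log2 fold change of each member between Angpt1ΔNC and the controls, with its standard error, by class, from edgeR, with filled points where the adjusted p was under 0.05. All 7 members lie below 0 in cluster 1, from -2.63 for Rgr to -0.79 for Lrat, whereas Ttr lies above 0 in cluster 8 (1.96) and below 0 in stroma (-2.72) and surface epithelium (-3.30).

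The other genes of the pathway moved in both directions. Of 23 further retinoid genes 13 could be tested in cluster 1, and 2 rose and 2 fell. Rdh10, which oxidizes retinol, fell by 1.20 on the log2 scale (adjusted p = 0.00136), from levels of 10.4 and 8.23 in the controls to 4.60. Stra6, the membrane receptor through which cells take up retinol, was at 5.51, 4.50 and 3.67, a change of -0.69 that did not pass (adjusted p = 0.0787). Rarres2, which encodes chemerin, rose by 2.61 (adjusted p = 1.82e-11), and the photopigment Opn4 rose by 2.80 (adjusted p = 0.00639) from 7 and 7 UMIs to 13. The median over the 13 genes was -0.53. Of 16 further genes of the pigment epithelium 14 were tested, of which Slc16a8 (-1.02, adjusted p = 0.00888) and the proline transporter Slc6a20a (-1.02, adjusted p = 0.00961) fell and Dct rose (0.83, adjusted p = 0.0248). Otx2 (-0.20) and Krt18 (-0.09) did not pass.

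In cluster 7, Rlbp1 and Rdh5 were above the background in all 3 libraries. The cluster held 316, 107 and 139 cells, at median depths of 7949, 6826 and 9072 UMIs. Rlbp1 was found in 34.5%, 29.9% and 30.2% of them, at levels of 1.12, 0.738 and 0.297. In the background, which was deeper, the shares were 1.01%, 0.395% and 0.110%. Rdh5 was found in 48.1%, 43.0% and 60.4%, against 4.65%, 4.25% and 3.07% of the background, at levels of 1.43, 1.56 and 1.96. The shares of Rlbp1 overlapped between the libraries while its level was lowest in Angpt1ΔNC, and Rdh5 was highest there.

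The highest Rlbp1 values of cluster 7 came from a few cells with genes of glia. Cells above 10 Rlbp1 UMIs per 10,000 numbered 5 in control 1, 1 in control 2 and 0 in Angpt1ΔNC, and held 54 of 197, 9 of 59 and 0 of 69 Rlbp1 UMIs. All 6 of these cells had at least 3 UMIs of the glial genes Slc1a3 and Aqp4 together, and none had Pmel. Cells with such glial genes, 6, 3 and 4 in the libraries, also held 6 of the 7 Rrh UMIs of the cluster in control 1, 8 of the 13 in control 2 and 0 of the 3 in Angpt1ΔNC. A further 38 cells of control 1 and 3 of control 2 carried genes of photoreceptors. In the other 272, 101 and 135 cells, a division made after seeing the data, Rlbp1 was at 0.605, 0.507 and 0.281, present in 37.1%, 29.7% and 29.6% of cells, and Rdh5 at 1.64, 1.65 and 1.96.

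No member was called between genotypes in cluster 7, where 4 could be tested and 0.788% of all genes were called in either direction by edgeR. These were 77 of 9766 genes, with 1297 at an unadjusted p under 0.05 and 56 called by DESeq2. Rlbp1 differed by -0.92 (SE 0.26, adjusted p = 0.180), Rdh5 by 0.45 (SE 0.21, adjusted p = 0.423), Rrh by -2.14 (SE 1.45, adjusted p = 0.591) and Ttr by -2.52 (SE 0.52, adjusted p = 0.0854). Without the cells with glial or photoreceptor genes the difference of Rlbp1 was -0.47 (adjusted p = 0.491), and 1 of 3 members tested fell, Ttr by 2.39 (adjusted p = 0.0286), against 1.74% of genes. The Ttr UMIs of the whole cluster were 49, 18 and 6, and those that free RNA at the level of the epithelium gives were 56.8, 7.85 and 2.56.

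In cluster 8, Ttr was higher in Angpt1ΔNC, opposite to cluster 1. Its level was 0.438 and 0.476 in the controls and 1.81 in Angpt1ΔNC, and 23.1%, 25.0% and 51.8% of the 839, 767 and 442 cells had a UMI of it. With every cell thinned to 1000 UMIs the shares were 4.41%, 3.65% and 16.1%. The Angpt1ΔNC library lay above both controls by either measure. Free RNA at the level of the surface epithelium would give 196, 82.7 and 8.22 Ttr UMIs in these cells, and 396, 364 and 934 were counted. With stromal cells as background the numbers expected were 182, 138 and 15.5. At least 2 Ttr UMIs were in 8.10%, 9.13% and 35.1% of the cells, and the largest count in a single cell was 48, 12 and 34.

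Ttr and Rrh rose in cluster 8, 2 of the 6 members tested, against 4.56% of genes called higher. Ttr changed by a log2 fold of 1.96 (SE 0.13, adjusted p = 2.64e-05). Rrh, with 41, 28 and 71 UMIs in 4.53%, 3.39% and 13.1% of cells, changed by 1.71 (SE 0.28, adjusted p = 0.00610), and did not pass in DESeq2's Wald test (1.72, adjusted p = 0.102). Rpe65 and Rgr did not accompany them, with 14, 1 and 1 and with 14, 5 and 0 UMIs. Rdh5 fell by 0.97 (SE 0.16, adjusted p = 0.00687), 1 member against 4.18% of genes called lower, with levels of 0.517, 0.549 and 0.270. Lrat was at 0.191, 0.243 and 0.126, in 17.5%, 19.2% and 12.4% of cells, a difference of -0.77 that did not pass (adjusted p = 0.0664).

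Choroid plexus markers were at or near 0 in cluster 8. Of 5 choroid plexus markers none was found in over 10% of cells, Kl and Prlr had 0 UMIs in the controls, and their summed level was 0.0114, 0.0134 and 0.0101. The RPE marker Best1 had 0 UMIs in the controls, 1 of 8 RPE markers, Mitf, passed 10% of cells, and their summed level was 1.63, 1.38 and 0.993. Of 16 further pigment epithelial genes 11 could be tested in cluster 8, where Kcnj13 (0.86) and Mertk (1.24) rose and Cdh1 (-0.94) and Mitf (-0.63) fell on the log2 scale, and 9 in cluster 9, where Dct, Kcnj13 and Mertk rose and Mitf fell. Their part in the values of Ttr and Rrh was not tested. All 7 markers of pigmented cells and melanocytes were present, summing to 462, 519 and 567.

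Cluster 9, tested after cluster 8 had been seen, gave the same directions for 3 members. Its 711, 799 and 292 cells held Ttr at 0.487, 0.312 and 1.35, in 15.05%, 11.9% and 30.1% of cells. Ttr rose by 1.89 (SE 0.17, adjusted p = 3.13e-26) and Rrh by 2.97 (SE 0.78, adjusted p = 0.00259), 2 of 4 members tested against 5.89% of genes. Ttr in cluster 8 had a similar change and a smaller SE with a far larger adjusted p, so these p-values do not rank the clusters. The change of Rrh in cluster 9 rests on 1, 5 and 12 UMIs, and was 4.34 without control 2 and 2.32 without control 1. Rdh5 was at 0.485, 0.541 and 0.202 and fell by 1.10 (SE 0.23, adjusted p = 6.75e-05), where 6.34% of genes were called lower. It did not pass in DESeq2's Wald test (adjusted p = 0.186). Lrat, at 0.0869, 0.198 and 0.178, differed by 0.03 (SE 0.33, adjusted p = 0.978).

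**Figure D5:**
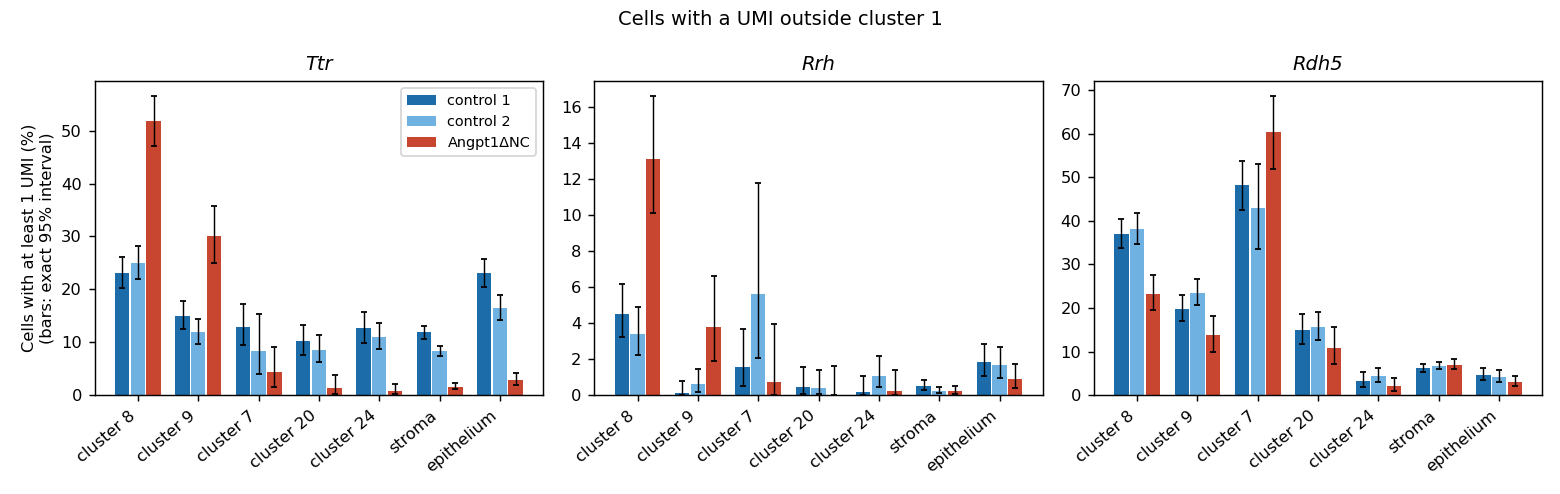
Percent of cells with at least 1 UMI of Ttr, Rrh and Rdh5 in classes outside cluster 1, 1 bar per library, with exact Clopper-Pearson 95% intervals. Ttr in cluster 8 is in 51.8% of Angpt1ΔNC cells against 23.1% and 25.0% in the controls, while in the background it is lowest in Angpt1ΔNC (2.96% against 23.1% and 16.5%).

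In stromal cells and surface epithelium Ttr was lower in Angpt1ΔNC, opposite to clusters 8 and 9. Stroma comprised 2803, 3324 and 1946 cells, and 3 of the 6 members tested fell, against 5.52% of genes called lower. Ttr had 380, 422 and 46 UMIs there and changed by -2.72 (SE 0.22, adjusted p = 0.000261). Rpe65 had 23, 26 and 1, a change of -4.08 (SE 0.91, adjusted p = 0.0291). Rgr had 35, 32 and 0 and was at least 8.61-fold lower, with 3 counts as the limit of the Angpt1ΔNC library (adjusted p = 0.00924). Rdh5, whose ratio to Ttr was above the background, had 188, 252 and 151 UMIs and differed by -0.14 (SE 0.19, adjusted p = 0.707). In clusters 4 and 5, of 989, 1012 and 911 cells, 1 of 6 members tested fell, against 2.91% of genes. This was Ttr, with 441, 197 and 27 UMIs and a change of -3.30 (SE 0.45, adjusted p = 0.00766). The number of cluster 1 cells, 133, 81 and 17, was in the same order as the Ttr UMIs of the epithelium, and its part in these differences was not tested.

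The genes most like the members in their pattern over the 105 means of 35 labels and 3 libraries were named by the correlation of log2(level + 0.1) among 7798 genes. Those nearest Rpe65 were Gip (Pearson's r 0.99), Tmem72 (0.99) and Sult1c1 (0.99). Nearest Rgr were Pon1 (0.99), Slc7a10 (0.98) and Slc16a8 (0.98), and nearest Rrh Slc16a8 (0.97), Pon1 (0.97) and Ermn (0.97). Rlbp1 was nearest to Rsph10b (0.98), Otx2 (0.98) and Tmem27 (0.96), each of which was also found in cluster 7, at 0.323, 0.209 and 0.237 in the controls. Lrat was nearest to A930028N01Rik (0.93), Ttr to Slc16a8 (0.91) and Rdh5 to Cspg5 (0.90), the lowest values. The means share libraries and are dominated by the 3 of cluster 1, so the coefficients are a description.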

How the data were processed

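The authors deposited raw UMI counts of 31053 genes in every called cell of 3 libraries, aligned to mm10 and counted with Cell Ranger (version 2.1.1 in the submitters' processing notes, 3.0.2 in the file headers), and the cluster labels of the cells kept after doublet removal and filters on genes (minimum 200), UMIs (minimum 1000) and mitochondrial UMIs (maximum 10%) in Seurat 3.1.3. The integrated values deposited beside them were not used. The 7 members, the gene lists and the classes were chosen with earlier results of these data known.

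A level averages, over cells, the UMIs of a gene per 10,000, and shares have exact 95% intervals (scipy 1.17.1). Counts were summed per class and library and tested with edgeR 4.0.16 in R 4.3.3 (filterByExpr, TMM factors, quasi-likelihood test, called where the p adjusted by Benjamini-Hochberg was under 0.05), 2 controls against 1 Angpt1ΔNC library, after tests on simulated data. DESeq2 1.42.0, no filter, and leaving out each control were alternatives. Free RNA was read as the ratio of a member to Ttr in clusters 4 and 5. The named genes are the members, 23 further retinoid genes, 16 further genes of pigment epithelium, cell type markers, neighbours within 5 kb and the 3 genes most like each member. Positions come from GENCODE M21, in which 30934 of 31053 identifiers were found, and promoters from RefSeq (GRCm38.p6). Of the retinoid genes called in cluster 1, 1 is not reported here. No column of values was left without a sample. With a median of 6329.5 to 7444 UMIs per cell, genes at a level near 1 escape detection in a part of the cells. Intervals and limits cover counting error only.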

Additional observations from a re-analysis of the deposited data

Results flagged for a closer look

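Several members moved in opposite directions in different classes of the Angpt1ΔNC library, and the difference between the classes was not tested. In cluster 1 the Angpt1ΔNC level of Rdh5, Rrh and Ttr was below both controls. It was above both for Rdh5 in cluster 7 (1.96 UMIs per 10,000), for Rrh in cluster 8 (0.130) and cluster 9 (0.0527), and for Ttr in cluster 8 (1.81) and cluster 9 (1.35). The value for Rdh5 in cluster 7 did not pass the edgeR test, whereas the others did.

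RPE-like barcodes were also present among those the authors removed. Barcodes with over 10% mitochondrial UMIs as their only fault and at least 5 Slc16a8 UMIs per 10,000 numbered 24 in control 1, 45 in control 2 and 16 in Angpt1ΔNC. Of these, 62.5%, 62.2% and 31.2% had a UMI of Rpe65, at mean levels of 23.7, 16.6 and 6.42. Rgr was at 39.3, 25.6 and 10.1 and Rlbp1 at 12.96, 10.5 and 6.01, so that Angpt1ΔNC was the lowest library for each, as among the kept cells of cluster 1. Barcodes with too few UMIs or genes and the same Slc16a8 level numbered 26, 20 and 2, and there Angpt1ΔNC was the highest for Rpe65 (30.5, 36.5 and 53.5) and Rgr (50.02, 19.6 and 75.6), on 2 barcodes. Those that passed the filters and were still removed numbered 34, 34 and 1, with Rpe65 at 15.8, 17.9 and 0.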

How the results depend on the processing

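Of 33 tests of a member in a class, 17 passed. All 17 kept their direction under every alternative that gave a value. With the size factors of DESeq2, 16 of the 17 still passed, and without a filter on low counts all 17 did. With its Wald test 14 had an adjusted p and 11 passed. Of the 16 that did not pass, 5 passed without the filter, and 2 changed sign without control 1, among them Rpe65 in cluster 8 (14 of 16 UMIs from control 1). The number of all genes called depended more on the tool and the filter, and the cause was not tested. It was 904 in cluster 1 (167 with DESeq2's Wald test), 77 in cluster 7 (626 without the filter, 301 without the cells with glial or photoreceptor genes), 999 in cluster 8 (310 and 1708 with the Wald test and without the filter), 1275 in cluster 9 (205 with the Wald test), 1251 in stroma (636 and 2441) and 706 in the epithelium (431 and 1814). Cells outside cluster 1 with several members numbered 26 at 3 or more of 6, 430 at 2 or more and 9 at 4 or more. Leaving out a control leaves 1 library against 1, with fold changes and no test. No paired analysis was possible because the Angpt1ΔNC group has 1 library and shares fewer than 2 replicate numbers with the controls.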

Other observations

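A few cells outside cluster 1 carried several members at once. At least 3 of the 6 members other than Ttr were found in 12 of 8943 such cells of control 1, 12 of 10079 of control 2 and 2 of 6755 of Angpt1ΔNC, against 128 of 133, 77 of 81 and 14 of 17 cells of cluster 1. Of these, 4 lay in cluster 24 of control 2, which the study counted among the monocytes, and 7 lay in each of clusters 7 and 8 over the 3 libraries.

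Rdh5 was set beside Bloc1s1, with which it shares bases. There were 14609, 11431 and 5330 Rdh5 UMIs per 100 of Bloc1s1 in cluster 1 and 819, 433 and 844 in cluster 7, against 42, 24 and 23 in the background epithelium. In cluster 8 the values were 140, 114 and 74 and in stroma 55, 39 and 45.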
